A study of Mus musculus with 8 samples.

Results

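The fat-digesting proteins that the acinar cells of the pancreas secrete are encoded by 6 genes, Pnlip, Clps, Pnliprp1, Pnliprp2, Cel and Pla2g1b. The rule that picks them uses their names and this known function, and all 6 were found among the 21434 genes of the count table. All 6 also passed the filter on low counts, which left 12820 genes to test. The libraries came from whole pancreas of untreated mice of the strain C57BL/6N-Bach2tm1b(EUCOMM)Wtsi/leg, 18 weeks old and kept on chow, 4 homozygous Bach2KO mice and 4 Bach2WT mice of that strain, with 2 females (replicates 1 and 2) and 2 males (replicates 3 and 4) in each group. The deletion is present in every cell of the body, and Bach2KO mice of this line are smaller and develop a lung disease. The study also reports higher scores of pancreatic lesions with lymphocyte infiltrates in untreated Bach2KO mice of this age. No lesion scores of the single sequenced mice were used here. A difference in pancreas therefore cannot be assigned to loss of Bach2 in acinar cells. The comparison asks how the mRNAs of fat digestion differ between pancreas with and without Bach2, a transcription factor known mainly from B and T lymphocytes.

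Acinar cells make digestive enzymes in bulk, store them in zymogen granules and release them into the gut when food arrives. Dietary fat is mostly triglyceride, and the main enzyme that splits it is pancreatic triglyceride lipase, Pnlip. Bile salts displace this lipase from fat droplets, and the small protein colipase, Clps, anchors it there again. Cel, by contrast, is a lipase that bile salts activate, and it splits cholesterol esters, vitamin esters and a wide range of other lipids. Pla2g1b is a secreted phospholipase that trypsin activates in the gut. Pnliprp2 splits galactolipids and phospholipids and is known from suckling animals, whereas Pnliprp1 resembles Pnlip closely but is known for having little lipase activity.

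The genes of 3 of these proteins stand next to each other. In the coordinates of the deposited table (GRCm39), Pnlip (ENSMUSG00000046008) lies on chromosome 19 from 58640930 to 58670220, Pnliprp1 (ENSMUSG00000042179) from 58717319 to 58732601 and Pnliprp2 (ENSMUSG00000025091) from 58748151 to 58765966, all on the plus strand. Between Pnlip and Pnliprp1 the table lists the lncRNA 1810035K13Rik (8 to 50 counts per library) and a transcribed pseudogene, 1810018F18Rik, which had 1279 to 4847 counts against 5047155 to 14077271 for Pnlip. The other genes are on separate chromosomes: Cel (ENSMUSG00000026818) on chromosome 2 from 28445807 to 28453415, minus strand, Clps (ENSMUSG00000024225) on chromosome 17 from 28777123 to 28779740, minus strand, and Pla2g1b (ENSMUSG00000029522) on chromosome 5 from 115604321 to 115612781, plus strand. Cel overlaps the antisense lncRNA Gm13381 (98 to 1099 counts) and Clps overlaps Mir6969 (0 to 40 counts). The sources do not state whether strand was used in counting, so reads of these overlapping pairs may be shared, and reads of the related lipases of chromosome 19 may be split between them.

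RefSeq promoter sequences (GRCm38.p6, 250 bases before to 50 after the start of transcription) were matched for 5 of the 6 genes, all but Clps. The 250 bases before the start are shown for Pnlip (chr19:58670115-58670364, plus strand) and Cel (chr2:28563404-28563653, minus strand). These 2 were chosen because, of the ratios to Pnlip given below, only that of Cel did not overlap between the genotypes. Both are written 5′ to 3′ in the direction of the gene. Capitals mark matches, on either strand, to 5 short motifs. The TATA box was searched as TATAAA. The acinar transcription factor complex PTF1 binds an E-box, searched here as CACCTG, together with a TC-box, for which the string searched was TTTCCCA. The nuclear receptor Nr5a2 binds a site that contains AAGGTCA. Proteins of the BACH and MAF families bind a core that was searched as TGAGTCA.
Pnlip: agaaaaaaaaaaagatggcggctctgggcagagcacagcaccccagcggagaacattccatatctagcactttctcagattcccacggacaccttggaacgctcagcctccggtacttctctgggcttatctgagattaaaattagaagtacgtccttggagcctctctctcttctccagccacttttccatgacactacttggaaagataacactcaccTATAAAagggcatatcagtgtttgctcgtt
Cel: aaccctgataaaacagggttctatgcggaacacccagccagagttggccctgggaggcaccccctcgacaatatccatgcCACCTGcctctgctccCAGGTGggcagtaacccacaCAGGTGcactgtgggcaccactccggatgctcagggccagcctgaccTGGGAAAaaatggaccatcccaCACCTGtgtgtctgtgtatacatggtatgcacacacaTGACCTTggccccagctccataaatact
The Pnlip promoter holds a TATA box that begins 30 bases before the RefSeq start, and no E-box, TC-box or Nr5a2 motif. The RefSeq starts in GRCm38.p6 are 58670365 for Pnlip, 58728887 for Pnliprp1 and 58759723 for Pnliprp2. Against the starts in the deposited table, Pnliprp1 and Pnliprp2 are shifted by nearly the same distance and Pnlip by much more. The Pnlip window therefore lies inside the span that the table gives for this gene, and not before its first base. The Cel promoter holds 4 E-boxes, at 170, 154, 134 and 65 bases before the start, 1 TC-box at 87 and 1 Nr5a2 motif at 28. The BACH and MAF core was found in 1 of the 5 promoters, that of Pnlip, 30 bases after the start and so past the stretch shown. Pnliprp2 has an E-box that begins 228 bases before its start, and Pnliprp1 and Pla2g1b have no match to any of the 5 motifs. Among 32851 mouse promoter windows of the same 300 bases, 5.2% hold the BACH and MAF core, 20.2% the E-box, 8.06% the TC-box, 4.72% the Nr5a2 motif and 13.6% the TATA box. No motif overlaps another in the windows shown. These matches describe letters in a window, and no binding was measured here.

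The libraries held 72299745 to 172029360 counts on genes. The targeted gene gave 16, 3, 12 and 14 counts in Bach2KO replicates 1 to 4 and 4, 4, 31 and 6 counts in Bach2WT replicates 1 to 4, which is too few in this tissue to check the genotype labels. The acinar markers were high in every library, with a summed 263381 to 303268 CPM in Bach2KO and 276696 to 375928 CPM in Bach2WT (6 of 6 genes detected). Bach2KO replicate 3 stood apart on the first principal component (101.8 against -34.8 to 7.22 for the other libraries, 23.3% of the variance) and had the highest share of mitochondrial counts (0.367%). Deep libraries (over 100000000 counts) and shallow libraries were 2 and 2 in each genotype. The sources do not call the mice littermates, and p-values rest on the spread between these single animals.

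The 6 mRNAs were among the most abundant of the tissue. Together they took 15.2%, 16.5%, 15.7% and 18.3% of all counts in Bach2KO replicates 1 to 4, and 17.8%, 15.2%, 16.3% and 15.0% in Bach2WT replicates 1 to 4. The means were 16.4% ± 1.37 in Bach2KO and 16.1% ± 1.31 in Bach2WT (SD, n = 4), and the groups overlapped. The 95% Wilson interval of each share reached at most 0.00838 percentage points to either side, counting error only, so that the spread between mice and not depth set the precision. Of the counts on 36 digestive enzyme genes, which include these 6, they took 19.5% ± 1.75 in Bach2KO and 18.9% ± 1.5 in Bach2WT.

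Per kilobase of gene, on the scale of the deposited FPKM, Pnlip and Clps had the highest levels, followed by Cel, Pnliprp1, Pla2g1b and Pnliprp2. Pnlip had 24869, 31930, 30916 and 32467 FPKM in Bach2KO replicates 1 to 4, and 30535, 34466, 36037 and 32827 FPKM in Bach2WT replicates 1 to 4. Clps had 31576, 24389, 28666 and 24277 FPKM in Bach2KO and 27762, 36155, 35153 and 40075 FPKM in Bach2WT. The lipase was above its cofactor in 5 of 8 libraries, and their order could not be told apart from the spread (median ratio 1.05, two-sided exact sign-flip test over 8 libraries, p = 0.617, the same after adjustment over 5 neighbouring pairs). Clps was above Cel in 8 of 8 libraries by 1.15 to 2.17 times. Cel was above Pnliprp1 by 2.41 to 3.62 times, Pnliprp1 above Pla2g1b by 1.71 to 3.47 times and Pla2g1b above Pnliprp2 by 1.03 to 2.19 times, each in 8 of 8 libraries. For each of these 4 steps the exact sign-flip test gave p = 0.00781, the smallest it can give, and an adjusted p of 0.00977. The genes were put in order by these same FPKM values, so the p-values describe only the spread between libraries. They do not cover the division by gene length (611 bases for Clps, 2104 for Cel). In counts, without that division, Cel was above Clps and Pnliprp2 above Pla2g1b in every library. In rank among all genes by FPKM, Pnlip stood between places 5 and 12 and Pnliprp2 between places 22 and 27.

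**Figure D1:**
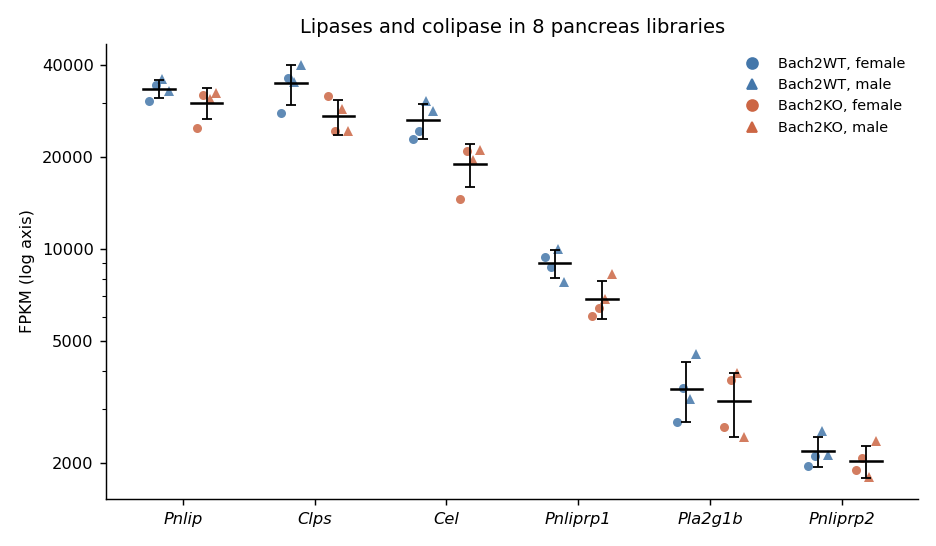
FPKM (log axis) of the 6 genes in 4 Bach2WT and 4 Bach2KO pancreas libraries, with circles for females, triangles for males, and bars for the mean and SD of each genotype. Cel is the gene whose Bach2KO libraries (14526 to 21148 FPKM) all lie below the Bach2WT libraries (22838 to 30409 FPKM), and for the other genes the genotypes overlap.

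None of the 6 genes passed the test between the genotypes. In edgeR's quasi-likelihood test with Benjamini-Hochberg adjustment over all 12820 genes, 0 of 6 were past 0.05, against 0.0078% of all genes tested. That share is 1 gene, Rnase2a, named here after its values were seen and at 0 counts in every Bach2WT library (edgeR adjusted p = 0.0439). DESeq2 also called 0 of the 6. At an unadjusted p under 0.05, 2 of 6 (Cel and Pnliprp1) were lower in Bach2KO, against 3.56% of all genes in that direction, and 0 were higher, against 3.9%. That count was 3 with DESeq2 and 0 with library sizes without digestive enzymes, with total counts and without Bach2WT replicate 3. It was 1 (Clps) without Bach2KO replicate 1. In CPM, 1 of the 6 (Cel) was lower in every Bach2KO library than in every Bach2WT library, against 1.92% of all genes tested, and 0 were higher without overlap, against 2.57%. With TMM factors the fitted log2 fold changes of all 6 were below 0 (3 of them were above 0 under other scalings given below), with a median of -0.23, whereas the median over all genes tested was 0.05 and 45.3% of genes were below 0. The summed acinar markers given above had means of 284683 CPM in Bach2KO and 338419 CPM in Bach2WT with TMM factors, and of 316252 and 302423 CPM on total counts without TMM factors, so that their direction turned with the scaling. The fitted log2 fold changes of these 6 markers ran from -0.53 to 0.08, and their part in the result was not tested. In whole tissue, fewer acinar cells and less of an mRNA per cell cannot be told apart.

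Cel, the bile salt-activated lipase, had the largest difference of the 6 with TMM factors and all 8 libraries. Its levels were 14526, 20892, 19516 and 21148 FPKM in Bach2KO replicates 1 to 4 and 22838, 24380, 30409 and 28170 FPKM in Bach2WT replicates 1 to 4. Every Bach2KO library lay below every Bach2WT library. The means were 19020 ± 3081 FPKM and 26449 ± 3462 FPKM (SD, n = 4). The log2 fold change was -0.45 (SE 0.17, 95% interval -0.82 to -0.09), a change of -26.9%, with an unadjusted p of 0.0186 and an edgeR adjusted p of 0.607. Across the alternatives its adjusted p ran from 0.246 to 0.903. Without Bach2KO replicate 1 its log2 fold change was -0.35 (unadjusted p = 0.0679), smaller than that of Clps in the same fit, and without Bach2WT replicate 3 it was -0.38 (unadjusted p = 0.065). As a share of all counts, without between-library normalization, Cel overlapped between the genotypes, with 3.79% to 5.28% in Bach2KO and 4.47% to 5.42% in Bach2WT.

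Pnliprp1, the lipase-related protein with little known activity, had 6034, 6407, 6859 and 8264 FPKM in Bach2KO and 9404, 8707, 10006 and 7777 FPKM in Bach2WT. Bach2KO replicate 4 lay above Bach2WT replicate 4, and the other Bach2KO libraries were below the whole Bach2WT group. Its log2 fold change was -0.36 (SE 0.16, unadjusted p = 0.0408, edgeR adjusted p = 0.663).

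Clps, the colipase, gave a log2 fold change of similar size, -0.33 (SE 0.17, 95% interval -0.69 to 0.03, edgeR adjusted p = 0.714), from means of 27227 ± 3547 FPKM in Bach2KO and 34786 ± 5142 FPKM in Bach2WT (SD, n = 4). Here Bach2KO replicates 1 and 3 lay above Bach2WT replicate 1, so that the groups overlapped. Bach2KO replicate 1 had the lowest Pnlip and the lowest Cel of all 8 libraries but the highest Clps of its group. Without it, the log2 fold change of Clps was -0.42 (unadjusted p = 0.0392, edgeR adjusted p = 0.890).

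The remaining 3 genes had differences close to 0 on this scale. Pnlip, the main triglyceride lipase, had means of 30045 ± 3511 FPKM in Bach2KO and 33466 ± 2353 FPKM in Bach2WT (SD, n = 4). Its log2 fold change was -0.13 (SE 0.15, edgeR adjusted p = 0.916), with a 95% interval of the change from -27.1% to 14.3%. Pnliprp2, the galactolipase, had 1895, 2073, 1792 and 2359 FPKM in Bach2KO and 1958, 2100, 2536 and 2129 FPKM in Bach2WT, with a log2 fold change of -0.08 (SE 0.15, edgeR adjusted p = 0.953). The 2 groups were interleaved.

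Pla2g1b, the phospholipase, varied most within the genotypes. It had 2629, 3729, 3932 and 2435 FPKM in Bach2KO and 2712, 3504, 3235 and 4542 FPKM in Bach2WT, a coefficient of variation of 23.8% and 22.0%, against 7.03% to 16.2% for the other genes. Its log2 fold change was -0.11 (SE 0.20, edgeR adjusted p = 0.947). The direction rested on Bach2WT replicate 4, without which it was 0.03.

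The direction of 3 genes also depended on how the libraries were scaled. The TMM factors were 1.05 to 1.18 in Bach2KO and 0.826 to 1.10 in Bach2WT, and the library sizes behind the deposited FPKM were 1.06 to 1.24 times the total counts in Bach2KO and 0.833 to 1.13 times in Bach2WT. With total counts and no TMM factor, a setting chosen after the data were seen, the median over all genes tested moved by 0.30 on the log2 scale, from 0.05 to 0.35. On that scale Pnlip was 0.17 (SE 0.10), Pnliprp2 0.23 (SE 0.13) and Pla2g1b 0.20 (SE 0.15) higher in Bach2KO on the log2 scale, Clps was at -0.0045, Pnliprp1 at -0.06 and Cel at -0.14 (SE 0.11), and 0 of the 6 passed the test (edgeR adjusted p 0.456 to 0.990). With library sizes that leave out the digestive enzymes, where the median of all genes was 0.26, Pnlip (0.08), Pnliprp2 (0.15) and Pla2g1b (0.12) were above 0 as well. The change of scaling shifts nearly all genes alike, so the distances of the 6 genes from the median of all genes, 0.13 to 0.50 below it with TMM factors, stay nearly the same by construction.

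**Figure D2:**
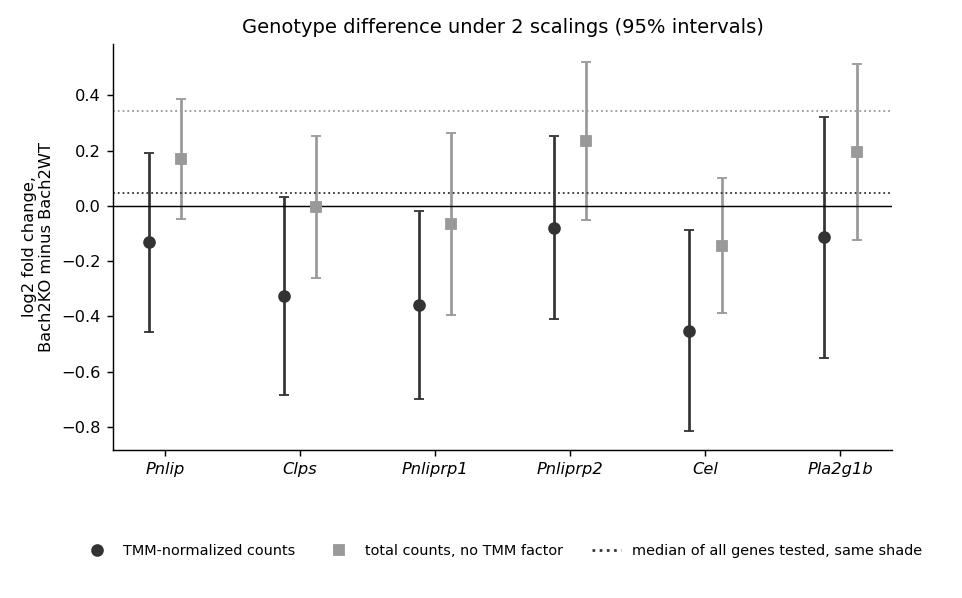
Log2 fold change of each gene, Bach2KO minus Bach2WT, with 95% intervals from edgeR, under TMM normalization (dark circles) and under total counts (grey squares). Dotted lines are the medians of all genes tested on the same scale, 0.05 and 0.35, and Pnlip, Pnliprp2 and Pla2g1b lie on opposite sides of 0 in the 2 fits.

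A ratio of 2 mRNAs within a library does not depend on that scaling, so each gene was set against Pnlip. For every 100 counts of Pnlip, there were 56.0, 62.7, 60.5 and 62.4 counts of Cel in Bach2KO replicates 1 to 4 and 71.7, 67.8, 80.9 and 82.3 in Bach2WT replicates 1 to 4. The highest Bach2KO library was below the lowest Bach2WT library. The means were 60.4 ± 3.11 and 75.7 ± 7.03 counts (SD, n = 4), and the mean log2 ratios differed by -0.32 (Bach2KO minus Bach2WT), a change of -19.97%. A two-sided exact permutation test gave p = 0.029, the smallest that 4 against 4 libraries allow, and 0.143 after Benjamini-Hochberg adjustment over the 5 ratios, so that the ratio does not pass the correction. The difference was -0.23 in females and -0.41 in males, -0.32 in deep libraries and -0.32 in shallow libraries.

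The other 4 ratios overlapped between the genotypes. Per 100 counts of Pnlip, Pnliprp1 gave 20.3 to 25.8 counts in Bach2KO and 24.0 to 31.2 in Bach2WT (exact permutation p = 0.143, adjusted 0.357). Clps gave 20.8 to 35.3 and 25.3 to 34.0 counts (p = 0.371 by the exact permutation test, adjusted 0.619). Colipase thus varied against its lipase by more within Bach2KO mice, SD 6.75 counts, than the genotype means differed (25.8 and 28.9 counts). Pnliprp2 gave 4.15 to 5.46 and 4.36 to 5.04 counts (exact permutation p = 0.6, adjusted 0.75), and Pla2g1b 2.44 to 4.13 and 2.89 to 4.49 counts (exact permutation p = 0.943, adjusted 0.943).

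**Figure D3:**
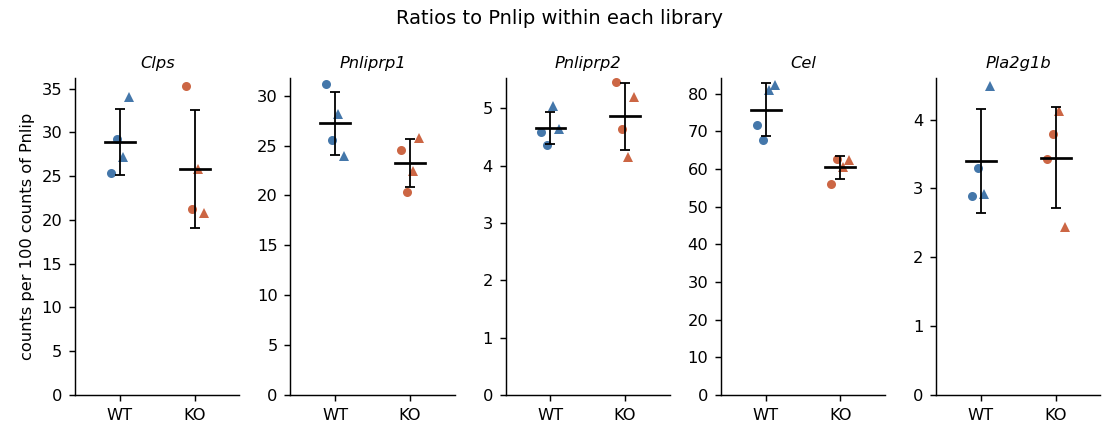
Counts of each gene per 100 counts of Pnlip in the same library, for 4 Bach2WT and 4 Bach2KO mice, with circles for females, triangles for males, and bars for mean and SD. Each panel has its own axis starting at 0, and Cel is the panel in which the genotypes do not overlap (67.8 to 82.3 against 56.0 to 62.7).

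For none of the 6 genes did the genotype difference vary between the sexes past the threshold. The interaction of sex and genotype called 0 of 6 genes in edgeR, against 0% of all genes tested. At an unadjusted p under 0.05 it also called 0, against 6.14% of all genes, and DESeq2 called 0 as well. The largest interactions were those of Pla2g1b (-0.34, SE 0.42, edgeR adjusted p = 0.959) and Clps (-0.34, SE 0.36, edgeR adjusted p = 0.952). Clps had the smallest p of the 6 genes (edgeR unadjusted p = 0.366), with genotype differences in log2 CPM of -0.16 in females and -0.49 in males. With 2 mice per sex and genotype the standard errors of the interaction were 0.33 to 0.42 on the log2 scale, so that moderate differences between the sexes could not have been seen. Between deep and shallow libraries the genotype difference in log2 CPM was alike for Clps (-0.33 and -0.32) and Pnliprp1 (-0.37 and -0.35). It was -0.60 in deep and -0.32 in shallow libraries for Cel, -0.27 and 0.0016 for Pnlip, and -0.38 and 0.14 for Pla2g1b, and these splits of 2 against 2 mice were not tested.

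From mouse to mouse, the 6 genes followed each other to different degrees. Of the 15 pairs, Pnlip and Cel had the highest Pearson's r in log2 CPM over the 8 libraries (r = 0.877, exact permutation p = 0.00625, adjusted over 15 pairs 0.0938, Spearman's rho = 0.762, exact permutation p = 0.0368). Within genotypes r was 0.892. Spearman's rho was higher for Pnliprp1 and Cel (0.810, exact permutation p = 0.0218) and for Pnlip and Pnliprp2 (0.786, exact permutation p = 0.0279). The p-values of rho were not adjusted over the 15 pairs. For Pnliprp1 and Cel, Pearson's r was 0.747 over all libraries but 0.360 within genotypes. For Pnlip and Pnliprp2 these values were 0.610 and 0.569. For Pnlip and Cel, r was 0.422 without the 2 libraries farthest from the median of Pnlip. Leaving out the extremes narrows the range of Pnlip, which by itself can lower r. The fall therefore cannot show how far the relation rested on those libraries. Pnlip and its cofactor Clps gave r = 0.123 (exact permutation p = 0.804, adjusted 0.861, rho = 0.286 with exact permutation p = 0.501, r = 0.392 without the 2 farthest libraries), and within genotypes r was -0.347. The neighbours Pnliprp1 and Pnliprp2 gave r = 0.563 (exact permutation p = 0.150, adjusted 0.376, rho = 0.5 with exact permutation p = 0.216, r = 0.242 without the 2 farthest libraries), and within genotypes r was 0.575.

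Among 1179 other genes with a mean of at least 10 CPM, those whose log2 CPM was most like that of a lipase over the 8 libraries were named as a description, since all values share the libraries and their scaling. For Cel these were Sec13, a coat protein of vesicles that leave the endoplasmic reticulum (r = 0.998), Bmp7 (r = 0.983) and Sil1, an exchange factor of the chaperone BiP (r = 0.976). Sec13 had 8.06, 10.8, 9.86 and 10.5 CPM in Bach2KO replicates 1 to 4 and 11.5, 11.8, 14.3 and 13.2 CPM in Bach2WT replicates 1 to 4. It was picked for its likeness to Cel over these same libraries. Its separation of the genotypes therefore adds no second observation to that of Cel. For Pnlip the most alike were Ctsb, the protease cathepsin B (r = 0.932), Maged1 (0.932) and Adi1 (0.930). For Pnliprp1 they were the fatty acid desaturase Fads1 (r = 0.954), Ppic (0.953) and Gatm (0.933), for Clps Dgcr6 (r = 0.924), Egln2 (0.913) and Cd320 (0.900), for Pnliprp2 Pcbp2 (r = 0.886), Clstn1 (0.884) and Lztr1 (0.878), and for Pla2g1b Use1 (r = 0.901), Hpn (0.896) and Clu (0.893).

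**Figure D4:**
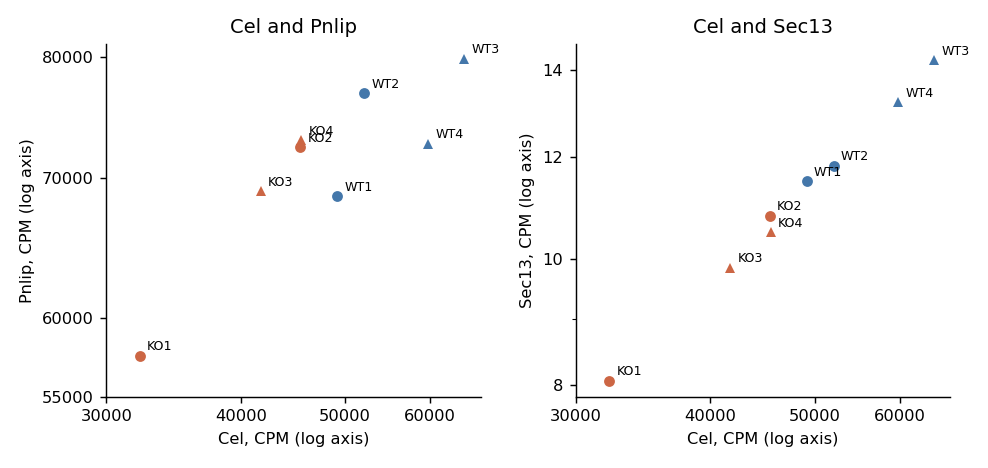
CPM of Pnlip (left) and Sec13 (right) against CPM of Cel in each library, on log axes, with libraries labelled by genotype and replicate, circles for females and triangles for males. Sec13, picked as the gene most like Cel over these libraries, follows Cel along a line over all 8 libraries (r = 0.998). Pnlip follows Cel less closely (r = 0.877) and at a given level of Cel differs between libraries.

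Other lipases, most of which work inside cells or in the circulation, are a separate group. Of 21 such genes and partner proteins, 16 were tested and 0 passed the adjusted test, with a median log2 fold change of 0.03 against 0.05 over all genes. The 2 with the smallest p were Lmf1, the factor that folds lipases in the endoplasmic reticulum (-0.54, SE 0.18, unadjusted p = 0.0091, edgeR adjusted p = 0.534), and Gpihbp1, which carries lipoprotein lipase to the capillary wall (0.76, SE 0.35, unadjusted p = 0.0464, edgeR adjusted p = 0.663). Lmf1 did not overlap between the genotypes in CPM and was lower in Bach2KO (mean 7.99 against 11.6 CPM). Of 11 other secreted phospholipases A2 and their receptor, 3 were tested and 0 passed, and Pla2g12a (-0.19, SE 0.15, edgeR adjusted p = 0.855) and Pla2g2f (0.57, SE 0.69, edgeR adjusted p = 0.923) had the smallest p.

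Of 12 transcription factors of acinar cells, all were tested and 0 were past the threshold, at the adjusted p and also at an unadjusted p under 0.05 in edgeR (median log2 fold change -0.03). Those with the smallest p were Rbpj (0.82, SE 0.41, edgeR adjusted p = 0.695) and Tcf12 (0.68, SE 0.38, edgeR adjusted p = 0.754), the E-protein that can pair with Ptf1a. The other digestive enzymes moved on either side of the lipases. The median log2 fold change was -0.66 for 6 trypsinogens (-1.31 to 0.15), -0.51 for 7 elastases and chymotrypsins (-1.18 to -0.12) and 0.12 for 17 further secreted proteins, amylases and carboxypeptidases among them (-0.70 to 0.86), and 0 of these 30 genes passed the adjusted test. At an unadjusted p under 0.05, 9 of the 30 were lower, against 3.56% of all genes tested, and 2 were higher, against 3.9%. These 2 were Spink1 and Amy2a2, named after their values were seen. In CPM, 6 of the 30 were lower in Bach2KO without overlap, against 1.92% of all genes tested, and 0 were higher, against 2.57%. The separation seen for Cel was thus also found among other digestive enzymes. These counts were made with TMM factors, and for the 30 genes they were not repeated under other scalings.

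Markers of other cell types were low beside the enzymes. A gene is given as detected if it had counts in at least 1 library, and some of these markers had 0 counts in other libraries. Summed islet markers were 227 to 2021 CPM in Bach2KO and 184 to 2317 CPM in Bach2WT (7 of 7 genes detected), duct markers 85.5 to 135 and 110 to 154 CPM (8 of 8), red blood cell markers 53.1 to 205 and 30.7 to 255.6 CPM (4 of 4) and stellate cell markers 27.1 to 55.9 and 25.8 to 65.8 CPM (5 of 5). Endothelial markers were 12.6 to 26.4 and 10.2 to 15.4 CPM (4 of 4), macrophage markers 7.45 to 10.3 and 5.11 to 9.08 CPM (7 of 7), adipocyte markers 3.37 to 19.6 and 1.397 to 23.3 CPM (8 of 8), B and plasma cell markers 4.97 to 16.3 and 3.66 to 9.93 CPM (7 of 7), and T cell markers 0.664 to 2.18 and 0 to 1.70 CPM (7 of 7). All of these summed ranges overlapped between the genotypes, but a sum can hide single genes. In CPM, 1 of 7 duct markers tested (Krt7) and 1 of 4 endothelial markers (Cdh5) were higher in Bach2KO without overlap, against 2.57% of all genes. Of 6 adipocyte markers tested, 1 (Plin1) was lower without overlap, against 1.92%. These 3 genes were named after their values were seen, and 0 passed the adjusted test. The part of these cell types in the values of the lipases was not tested.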

How the data were processed

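Poly-A RNA of 8 pancreas samples was sequenced in paired reads. The submitters' processing notes name fastp, HISAT2 2.2.1, featureCounts 2.0.6 and the build mm39. The authors deposited 1 table with raw counts per gene and library and with FPKM values, which are these counts divided by gene length and by 1 factor per library. It also holds the counts after that division and the authors' own log2 fold changes and p-values, which were not used. Every per-library column used matched a sample by name.

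Genotypes were compared on the deposited counts with edgeR 4.0.16 in R 4.3.3 (quasi-likelihood test, TMM, filterByExpr, no covariate, Benjamini-Hochberg over all genes tested, threshold 0.05). The standard error is the log2 fold change divided by the square root of F. CPM values use TMM factors, and log2 CPM a prior count of 2. Ratios and correlations were tested by exact permutation (two-sided). Alternatives were DESeq2 1.42.0, limma 3.58.1 on log2(FPKM + 1), other scalings, filters and covariates, and leaving out each library. The procedure was tested on simulated data. The Wilson intervals of shares cover counting error only, whereas the intervals of fold changes come from the fit over the 8 mice.

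The 6 genes, the lists and the motifs were chosen with earlier results of these data known. Named beside them were the 2 genes with the smallest p of 3 lists and the 3 genes most alike in log2 CPM to each of the 6. Genes added after their values were seen are marked as such. All coordinates of genes are those of the deposited table, and those of promoters are GRCm38.p6. The builds were not converted into each other.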

Additional observations from a re-analysis of the deposited data

How the results depend on the processing

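The 6 genes stayed below the threshold of the adjusted test under every alternative tried, and with an unadjusted p in its place 2 passed. Over all genes the count of 1 became 58 with DESeq2 and 73 without a filter on low counts. It became 957 with an unadjusted p. It became 0 with library sizes without digestive enzymes, with at least 10 counts in every library, with sex or depth class as a covariate, with limma on log2(FPKM + 1), and without any 1 of the libraries (0 to 0). The cause was not tested.

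Of the log2 fold changes, the direction turned for Pnlip (0.084), Pnliprp2 (0.15) and Pla2g1b (0.12) with library sizes without digestive enzymes, for the same 3 genes (0.17, 0.23 and 0.20) with total counts, and for Pla2g1b without Bach2WT replicate 4 (range over left-out libraries -0.25 to 0.033). The other 107 of 114 values kept their sign and their side of the threshold. When 1 library was left out, Pnlip ran from -0.17 to -0.059 (without Bach2KO replicate 1) and Pnliprp2 from -0.15 (without Bach2KO replicate 4) to -0.00019 (without Bach2WT replicate 3). The summed share of counts on the 6 genes, 0.37 percentage points higher in Bach2KO, ran from -0.26 to 0.95 when 1 library was left out.

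Of the ratios to Pnlip, Cel stayed lower throughout. Its difference ran from -0.37 to -0.28 when 1 library was left out, and the exact permutation p, 0.029 with all libraries, rose to 0.0571 without any 1 Bach2KO library. Clps turned to 0.012 in females, and ran from -0.35 (without Bach2KO replicate 1, exact permutation p = 0.0857) to -0.097 (without Bach2KO replicate 4) around -0.19. Pnliprp2 turned to -0.058 in males, -0.072 in shallow libraries and -0.0019 without Bach2KO replicate 1 (range -0.0019 to 0.13). Pla2g1b turned to -0.19 in males and -0.10 in deep libraries, and ran from -0.078 to 0.18 when 1 library was left out. The left-out libraries that turned it were Bach2KO replicates 2 and 3 and Bach2WT replicates 1 and 3.

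Deviations of libraries with the same replicate number gave r = 0.21, -0.03, -0.04 and -0.05 for replicates 1 to 4. Of the Bach2WT libraries, replicate 1 was the most like Bach2KO replicate 1. For replicates 2 to 4 the library with the same number was not the most alike. The numbers were not treated as pairs in the main fit. With the replicate block, 0 genes were called over all genes, and Cel had a log2 fold change of -0.46 (edgeR adjusted p = 0.503). The exact sign-flip test of its ratio to Pnlip over 4 same-number differences gave p = 0.125, the smallest it can give. Depth limited these abundant genes little, since their counting intervals were far narrower than the spread between mice.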

Other observations

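An lncRNA next to the lipase genes of chromosome 19 had the largest difference of the genes within 100 kb of Pnlip, and was picked after its values were seen. It is 1810007D17Rik (GRCm39, chromosome 19, 58594761 to 58618185), which lies on the same strand before Pnlip. It had 0.192, 2.46, 7.70 and 6.81 CPM in Bach2KO replicates 1 to 4 and 18.1, 28.0, 41.5 and 18.5 CPM in Bach2WT replicates 1 to 4. Every Bach2KO library was below every Bach2WT library, and the log2 fold change of 1810007D17Rik was -2.63 (SE 0.70, unadjusted p = 0.00244, edgeR adjusted p = 0.440), so that it did not pass the correction. The raw counts were 31, 204, 583 and 1315 against 1631, 3669, 5956 and 1287.

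The number of Cel counts per count of Sec13 lay between 3999 and 4527 in the 8 libraries, while Sec13 itself had 746 to 2048 counts. For Bmp7 the number of Cel counts per count was 2569 to 2885. Both genes were picked above for their likeness to Cel over these libraries, so that a narrow range comes with the choice.

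Fkbp5, a neighbour of Clps on chromosome 17 that glucocorticoids are known to induce, was also picked after its values were seen. It had 16.7 CPM in Bach2KO replicate 1, the mouse with the highest Clps of its group (20338 CPM), and 0.951 to 3.53 CPM in the other 7 libraries. Bach2WT replicates 2, 3 and 4 had more Clps than that mouse (22439, 21674 and 24698 CPM), with Fkbp5 at 0.998, 1.16 and 1.08 CPM. A relation between Fkbp5 and Clps was not tested.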
